A study of Mus musculus with 6 samples.

Results

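The genes described here are the 40 mitotic spindle and chromosome segregation genes of an RNA-Seq study of ATF3-induced mammary tumors in mice. They were chosen by gene symbol as genes of the spindle, the kinetochore, condensin and cytokinesis, and all 40 were present among the 15280 genes of the expression table. The libraries came from 3 mammary tumors (T11035, T11640 and T9232) and from the normal, adjacent mammary glands of the same 3 mice (M11035, M11640 and M9232). All mice were parous BK5.ATF3 transgenic females that had raised 1 litter. ATF3, a stress-induced transcription factor, was driven in them by the bovine keratin 5 promoter, which is active in basal epithelial cells. Most such mice developed tumors at 6 to 12 months of age, and tumors were taken at a length of 1.5 cm. Both tissues carried the transgene, so the comparison was tumor against gland within transgenic animals, with 1 tumor per mouse.

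When a cell enters mitosis, kinesin motors and microtubule-binding proteins build a bipolar spindle, and kinetochores assembled on the centromeres attach each chromosome to it. The spindle assembly checkpoint delays anaphase until every kinetochore is attached. The anaphase-promoting complex with Cdc20 then marks securin and cyclin B for destruction, separase opens the cohesin rings, and the central spindle directs the contractile ring that divides the cell. Most of these genes are transcribed in late S, G2 and M phase. The known promoter elements of this program are CCAAT boxes, bound by NF-Y, and the cell cycle homology region (CHR), core TTTGAA, bound by the MuvB complex together with B-Myb and FoxM1.

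Promoter windows of RefSeq (build GRCm38.p6, 250 bases before to 50 bases after a transcript start) were available for 36 of the 40 genes. The 4 windows below are shown because both elements lie in the 75 bases before the start and the start is within 30 bases of the outermost start of the gene. All 4 genes rose in the tumors, but this was not a condition of the choice. Espl1 and Prc1 also have windows with both elements in these 75 bases, but with starts further inside the gene, and are not printed. Each is written 5′ to 3′ on the gene's strand, with capitals marking CCAAT and TTTGAA or their reverse complements ATTGG and TTCAAA. They lie at chr4:118437344-118437418 on the minus strand (Cdc20), chr19:37376307-37376381 on the plus strand (Kif11), chr11:99024190-99024264 on the minus strand (Top2a) and chr2:164769854-164769928 on the plus strand (Ube2c).
Cdc20: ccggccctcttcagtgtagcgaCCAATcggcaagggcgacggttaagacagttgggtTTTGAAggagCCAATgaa
Kif11: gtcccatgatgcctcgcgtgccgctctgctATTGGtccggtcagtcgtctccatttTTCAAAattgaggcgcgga
Top2a: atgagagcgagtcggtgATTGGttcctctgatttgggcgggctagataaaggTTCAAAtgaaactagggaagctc
Ube2c: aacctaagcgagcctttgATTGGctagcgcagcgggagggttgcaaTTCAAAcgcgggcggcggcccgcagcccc
In these 4 windows TTTGAA began 18 to 29 bases before the start, and the nearest CCAAT upstream of it began 26 to 35 bases further away. In the windows not printed, CCAAT and TTTGAA began at -44 and -27 from the start for Espl1, closer together than in these 4, and at -62 and -30 for Prc1.

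CCAAT was found on either strand in the windows of 25 of the 36 genes (69.4%), against 42.4% of the 10726 genes of the expression table that have a window and 41.1% of all 27025 genes with one. TTTGAA was found in 28 of 36 (77.8%), against 15.2% and 20.2%. Within 50 bases of the start, a distance chosen after the positions were seen, it was found in 25 of 36 (69.4%), against 3.97% and 5.72%. Both elements were present in 23 windows (63.9%, against 6.15% of the genes of the expression table). The E2F-type letters TTTGGCGC or TTTCGCGC, typical of genes of DNA replication, were found in 2 (5.56%, against 1.67%). Matches of different motifs may share end letters, and a match is a description of the letters and not of a bound site. TTTGAA was not found in the windows of Birc5, Bub1, Cenpe, Mad2l1, Melk, Nuf2, Nusap1 and Pttg1. The Pttg1 window belongs to a transcript that starts 1482 bases inside the outermost start of the gene. For 26 of the 36 genes a window began within 30 bases of the outermost start. Racgap1 and Ncapd2, which were not called in the tumors, held both elements.

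Expression was measured in CPM, the fragments on a gene scaled by the effective library size that edgeR estimates. The libraries held 4750989 to 7806908 fragments on genes, so that 3 fragments, the floor used here, correspond to 0.393 to 0.610 CPM. In no library was any of the 40 genes at or under this floor. Replicates are separate mice. Tumors and glands were compared with limma's moderated test on log2(CPM + 0.5), 3 against 3 libraries, with Benjamini-Hochberg adjustment over all 15280 genes. Differentially expressed genes (DEGs) had an adjusted p no higher than 0.05 together with a change of 2-fold or more. Log2 fold changes are tumor minus gland on this scale, which understates the change of genes at low levels. All p-values printed here are two-sided and adjusted in this way.

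Of the 40 genes, 35 were upregulated DEGs in the tumors and 0 were downregulated, whereas 14.5% of all genes were upregulated DEGs and 13.7% downregulated. With the adjusted p alone, at any fold, the same 35 genes were higher, against 21.6% of all genes. In 37 of the 40, every tumor lay above every gland, against 27.6% of all genes. The median log2 fold change of the 40 was 1.56, with quartiles of 1.13 and 1.75, and that of all genes was -0.0028. Kif20a, Racgap1, Ncapd2, Smc4 and Pttg1 were not called. In bulk tissue, fewer cells of a type and less RNA per cell cannot be told apart, so these values do not separate a larger share of dividing cells from more RNA in each. An exact permutation test of 3 against 3 libraries could not go below p = 0.1 for a single gene, and the calls therefore rest on the spread that limma shares across genes.

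**Figure D1:**
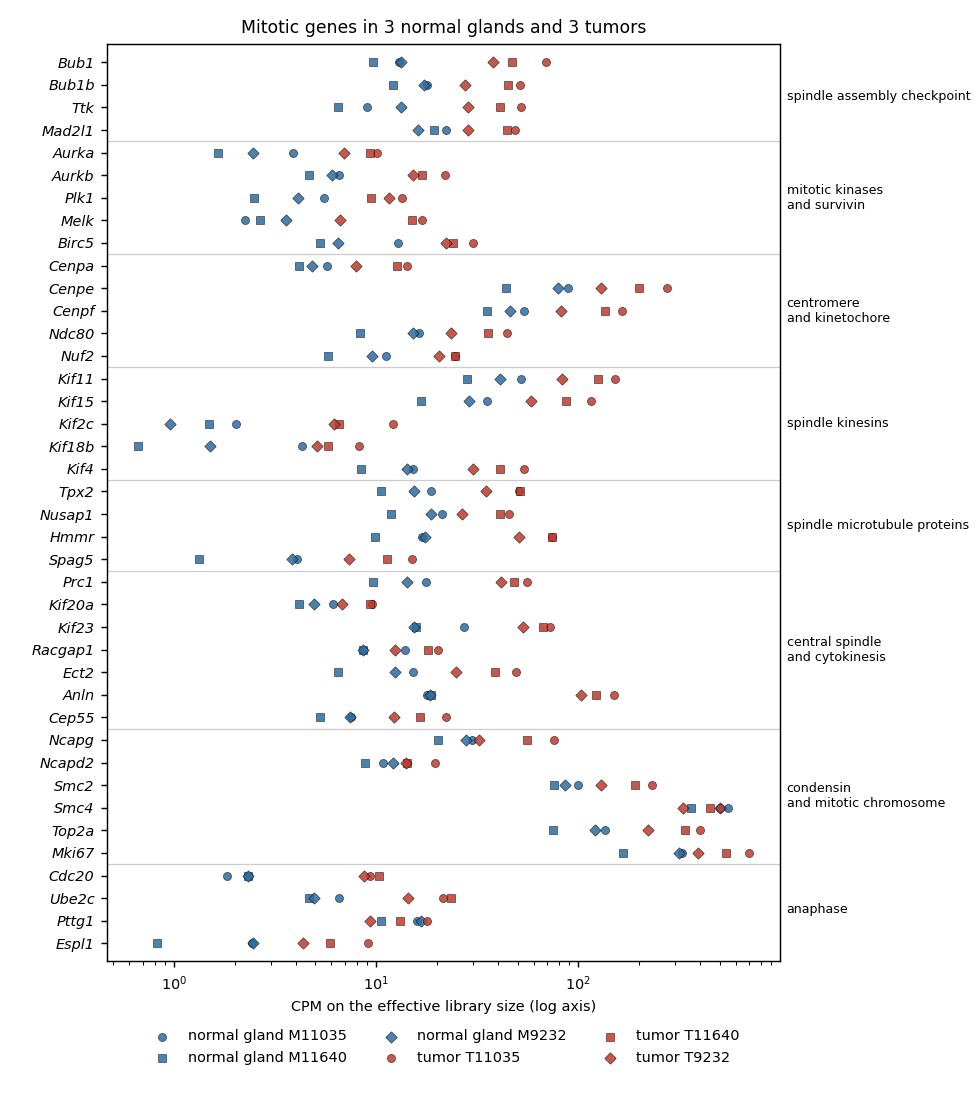
CPM of each of the 40 genes in the 3 normal glands (blue) and the 3 tumors (red) on a log axis, grouped by role, with 1 symbol shape per mouse. The tumors lie to the right of all glands in 37 rows, and the groups overlap in Racgap1, Smc4 and Pttg1.

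**Figure D2:**
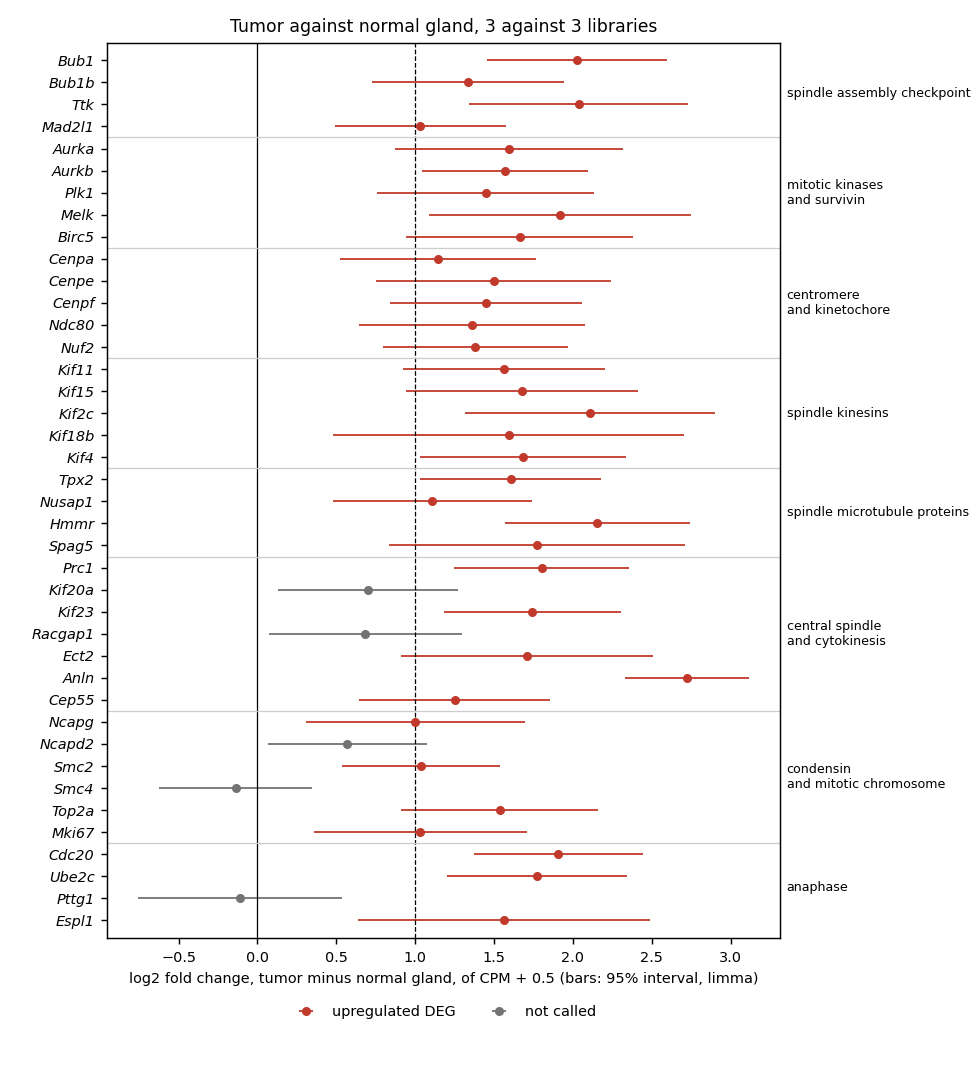
Log2 fold change of CPM + 0.5, tumor minus normal gland, with its 95% interval from limma for each gene (3 against 3 libraries). Red points are the 35 upregulated DEGs, grey points the 5 genes not called, and the dashed line marks a 2-fold change.

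All 4 genes of the spindle assembly checkpoint were upregulated. Ttk, the kinase Mps1 that starts checkpoint signaling at unattached kinetochores (mm9 chr9:83728296-83765997), measured 8.95, 6.44 and 13.3 CPM in the glands M11035, M11640 and M9232 and 51.7, 40.8 and 28.5 CPM in the tumors T11035, T11640 and T9232, the order of libraries used throughout. Its log2 fold change was 2.04 (SE 0.30, limma adjusted p = 0.000949). The lowest tumor thus stood above the highest gland. Bub1, the checkpoint kinase that also marks centromeres for cohesin protection, rose by 2.03 on the log2 scale, and Bub1b (BubR1), which inhibits Cdc20, by 1.34. Mad2l1 (Mad2), the other Cdc20 inhibitor (mm9 chr6:66485384-66491027), measured 22.2, 19.3 and 16.0 CPM in the glands and 48.4, 44.4 and 28.5 CPM in the tumors. Its log2 fold change of 1.03 (SE 0.24, limma adjusted p = 0.00841) was close to the threshold and fell to 0.91 without M9232, 0.89 without T11035 and 0.95 without T11640, so that the call was lost in each case.

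The mitotic kinases and survivin were upregulated in 5 of 5 cases, from Plk1 at 1.45 to Melk at 1.92. Melk, a kinase of proliferating and progenitor cells (mm9 chr4:44313748-44377547), measured 2.24, 2.64 and 3.56 CPM in the glands, from 11, 16 and 26 fragments, and 16.8, 14.9 and 6.59 CPM in the tumors (log2 fold change 1.92, SE 0.36, limma adjusted p = 0.00338). Its level in T9232 was well below that in the other two tumors. Plk1, the polo kinase of mitotic entry and centrosome maturation (mm9 chr7:129302951-129313389), measured 5.49, 2.48 and 4.10 CPM in the glands, from 27, 15 and 30 fragments, and 13.4, 9.44 and 11.5 CPM in the tumors (log2 fold change 1.45, SE 0.30, limma adjusted p = 0.0053). It was the single gene of the 40 for which T11640 and not T9232 was the lowest tumor. Aurora A (Aurka), which acts at spindle poles, rose by 1.59 from 19, 10 and 18 gland fragments, and 2 members of the chromosomal passenger complex, Aurora B (Aurkb) and survivin (Birc5), by 1.57 and 1.66.

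Among the centromere and kinetochore genes, 5 of 5 were upregulated within a narrow range of log2 fold changes. Cenpe, the kinetochore kinesin that carries chromosomes to the spindle equator (mm9 chr3:134875527-134936504), measured 89.0, 43.6 and 79.6 CPM in the glands and 273, 199.7 and 129 CPM in the tumors. Its log2 fold change of 1.50 (SE 0.33, limma adjusted p = 0.00677) was the highest of the group. Cenpf, a large protein of the outer kinetochore, rose by 1.45, and Ndc80 and Nuf2, partners in the complex that grips microtubule ends, by 1.36 and 1.38. Cenpa, the histone H3 variant that defines the centromere (mm9 chr5:30969150-30977200), measured 5.69, 4.13 and 4.79 CPM in the glands and 14.1, 12.7 and 7.94 CPM in the tumors. Its log2 fold change was 1.14 (SE 0.27, limma adjusted p = 0.00995). The call was lost without T11035 (0.99) and without T11640, where limma's adjusted p was 0.0515.

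The spindle kinesins were upregulated in 5 of 5 cases. Kif2c (MCAK), which depolymerizes microtubules to correct wrong attachments (mm9 chr4:116832244-116855244), measured 2.03, 1.49 and 0.958 CPM in the glands, from 10, 9 and 7 fragments. Tumor levels were 12.1, 6.55 and 6.14 CPM, with a log2 fold change of 2.11 (SE 0.35, limma adjusted p = 0.00162). Kif11 (Eg5), which slides the poles apart (mm9 chr19:37450893-37496349), measured 52.2, 28.1 and 40.9 CPM in the glands and 153, 125 and 82.9 CPM in the tumors (log2 fold change 1.56, SE 0.28, limma adjusted p = 0.00258). The 3 glands and the 3 tumors were thus separate for both motors, at very different levels. Kif15, which supports spindle bipolarity alongside Kif11, rose by 1.68, as did the chromokinesin Kif4. Kif18b, a plus-end kinesin of astral microtubules, had a log2 fold change of 1.59 that rested on 21, 4 and 11 fragments in the glands, and limma's adjusted p of 0.0297 became 0.0622 to 0.0992 when any 1 library other than M11035 was left out.

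The 4 spindle microtubule proteins were also upregulated. Hmmr (RHAMM), which helps to organize spindle poles (mm9 chr11:40514890-40546939), measured 16.9, 9.91 and 17.4 CPM in the glands and 73.9, 74.0 and 51.0 CPM in the tumors (log2 fold change 2.15, SE 0.26, limma adjusted p = 0.000281). This was the second highest log2 fold change of the 40 genes. Tpx2, the activator of Aurora A on the spindle, rose by 1.61, and Spag5 (astrin), a protein of spindle and kinetochores, by 1.77 from 20, 8 and 28 gland fragments. Nusap1, which bundles microtubules near chromatin (mm9 chr2:119444034-119476980), measured 21.1, 11.9 and 18.6 CPM in the glands and 45.4, 41.0 and 26.5 CPM in the tumors. Its log2 fold change of 1.11 (SE 0.28, limma adjusted p = 0.0123) did not keep its call without M11640 (0.87) or without T11035 or T11640, where limma's adjusted p was 0.0512 and 0.0577.

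Central spindle and cytokinesis genes were upregulated in 5 of 7 cases, and held the highest log2 fold change of the 40. Anln (anillin), the scaffold that links actin, myosin and septins in the contractile ring (mm9 chr9:22135658-22193650), measured 17.9, 18.7 and 18.5 CPM in the glands and 150, 123 and 103 CPM in the tumors. Its mean was 18.3 ± 0.40 CPM in glands and 125 ± 23.6 CPM in tumors (SD, n = 3), and its log2 fold change was 2.72 (SE 0.17, limma adjusted p = 1.09e-05). The glands were nearly equal in this gene. Prc1, which bundles the antiparallel microtubules of the central spindle, rose 3.49-fold (from the fitted log2 value). On the log2 scale, the central spindle kinesin Kif23 (MKLP1) rose by 1.74, the RhoA activator Ect2 by 1.71 and the abscission factor Cep55 by 1.25.

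The 2 cytokinesis genes that were not called had positive log2 fold changes below the 2-fold threshold. Racgap1, which forms the centralspindlin complex with Kif23 (mm9 chr15:99450927-99482087), measured 13.8, 8.59 and 8.62 CPM in the glands and 20.1, 17.9 and 12.4 CPM in the tumors. T9232 lay below the gland M11035, and the log2 fold change was 0.68 (95% interval 0.07 to 1.29, limma adjusted p = 0.0714). Kif20a (MKLP2), the kinesin that brings the passenger complex to the central spindle, measured 6.10, 4.13 and 4.92 CPM in the glands and 9.49, 9.30 and 6.74 CPM in the tumors. The groups did not overlap, and the log2 fold change was 0.70 (95% interval 0.13 to 1.27, limma adjusted p = 0.0527). The exons of Kif20a overlap those of Cdc23, a subunit of the anaphase-promoting complex with a log2 fold change of 0.41 that was not called, and reads in the overlap cannot be told apart.

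Condensin and mitotic chromosome genes gave 4 upregulated DEGs of 6 and the lowest median of the role groups, 1.02. Top2a, the topoisomerase that untangles sister chromatids (mm9 chr11:98854257-98885503), measured 135, 74.7 and 120 CPM in the glands and 399, 338 and 222 CPM in the tumors (log2 fold change 1.54, SE 0.27, limma adjusted p = 0.00248). Mki67, which encodes the proliferation antigen Ki-67 on the chromosome surface, had a log2 fold change of 1.03, the condensin ATPase Smc2 one of 1.04 and the condensin I subunit Ncapg one of 1.0006. These 3 calls lay at the threshold. Each was lost without M11640 (0.72, 0.94 and 0.83), without T11035 (0.83, 0.85 and 0.72) and without T11640, where Smc2 was at 0.99 and limma's adjusted p was 0.0748 for Mki67 and 0.101 for Ncapg.

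Smc4, the ATPase partner of Smc2 in both condensins (mm9 chr3:68808660-68838545), did not follow it. It measured 551, 360 and 500 CPM in the glands and 504, 447 and 330 CPM in the tumors, so that the groups overlapped. The log2 fold change was -0.14 (95% interval -0.62 to 0.34, limma adjusted p = 0.632), and 0.04 when T9232 was left out. Per kilobase of exon, Smc4 had the highest level of the 40 genes in both tissues, with means of 93.5 CPM per kb in glands and 84.8 CPM per kb in tumors. Smc2 stood at 15.6 and 32.9 CPM per kb. Ncapd2, the condensin I HEAT-repeat subunit (mm9 chr6:125118027-125141613), measured 10.8, 8.75 and 12.0 CPM in the glands and 19.5, 14.2 and 14.1 CPM in the tumors. All tumors were above all glands, but by a log2 fold change of only 0.57 (95% interval 0.07 to 1.08, limma adjusted p = 0.069).

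Of the 4 anaphase genes, 3 were upregulated. Cdc20, the activator of the anaphase-promoting complex and the target of the checkpoint (mm9 chr4:118105506-118109957), measured 1.83, 2.31 and 2.33 CPM in the glands, from 9, 14 and 17 fragments, and 9.30, 10.3 and 8.69 CPM in the tumors. Its log2 fold change was 1.91 (SE 0.24, limma adjusted p = 0.000338). It was the gene of the 40 in which T11035 and T9232 differed least. Exons of Cdc20 overlap those of Elovl1, a fatty acid elongase that was also upregulated, at 12.8, 12.9 and 16.4 CPM in the glands and 24.8, 53.1 and 61.4 CPM in the tumors (log2 fold change 1.60), and reads in the overlap cannot be told apart. Ube2c, the ubiquitin-conjugating enzyme of the complex, rose by 1.77, and Espl1 (separase), the protease that cuts cohesin, had a log2 fold change of 1.56 from 12, 5 and 18 gland fragments, with a limma adjusted p of 0.0148 that became 0.0577 without T11035. Exons of Ube2c overlap those of Tnnc2, a muscle troponin at 249, 66.4 and 0.274 CPM in the glands and at most 0.558 CPM in the tumors. Ube2c measured 6.51, 4.62 and 4.92 CPM in the glands, and M11035 was the highest gland for both genes. Reads in this overlap cannot be told apart either, and their part in the Ube2c levels was not tested. The exon neighbors of Kif4 (Pdzd11), Ncapg (Lcorl) and Nusap1 (Oip5) were not called. Pttg1 (securin), the inhibitor of separase (mm9 chr11:43233752-43239753), measured 15.9, 10.6 and 16.6 CPM in the glands and 17.9, 13.1 and 9.29 CPM in the tumors. The groups overlapped, with T9232 below every gland. The log2 fold change was -0.11 (95% interval -0.76 to 0.53, limma adjusted p = 0.782), 0.0018 without M9232 and 0.12 without T9232.

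The tumors differed from each other in a shared order. T11035 had the highest level of the 3 tumors in 35 of the 40 genes and T9232 the lowest in 39, and the full order T11035, T11640, T9232 was seen in 34. Summed over the 40 genes, the tumors reached 3728, 3057 and 2159 CPM in that order. The 6 condensin and mitotic chromosome genes gave 1932, 1582 and 1117 CPM of these sums, the largest part of any role group. All 40 genes were higher in T11035 than in T9232, by a median of 0.81 on the log2 scale (1.75-fold), from 0.09 for Cdc20 to 1.28 for Melk. Of all genes, 46.7% were higher in T11035 than in T9232, with a median of -0.03. The order is that of single tumors, so it has no test, and genes of 1 library are not independent of each other.

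The glands also had an order. M11640 was the lowest gland in 34 of the 40 genes. M11035 was above M11640 in 37 of the 40, against 49.7% of all genes. M9232 was above M11640 in 36, against 52.6% of all genes. This order is also that of single libraries and has no test. The summed level was 1722 CPM in M11035, 1043 CPM in M11640 and 1549 CPM in M9232. Of these sums, the 6 condensin and mitotic chromosome genes gave 1151, 706 and 1063 CPM, and Smc4 alone gave 551, 360 and 500.5 CPM. Within mice, the median log2 ratio of tumor to gland over the 40 genes was 1.49 for T11035 against M11035, 2.05 for T11640 against M11640 and 0.93 for T9232 against M9232. The 40 genes were higher in the tumor in 39, 40 and 38 cases, in this order, against 49.8%, 51.6% and 49.3% of all genes. They were at least 2-fold higher in 34, 37 and 18 cases, against 17.6%, 16.5% and 16.0% of all genes. The mouse with the lowest tumor, T9232, thus had a gland near the highest one.

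**Figure D3:**
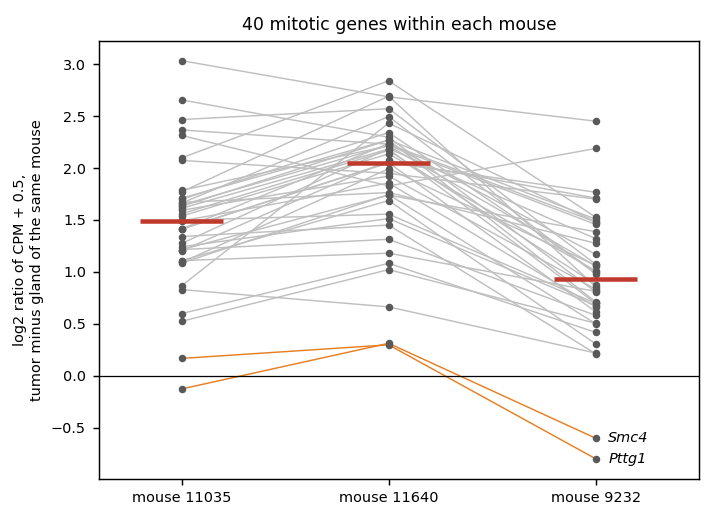
Log2 ratio of CPM + 0.5, tumor minus gland of the same mouse, for each of the 40 genes (grey points joined across mice) with the median per mouse (red bars, 1.49, 2.05 and 0.93). Smc4 and Pttg1 (orange) lie near or below 0 in every mouse.

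Markers of other cell types moved with the comparison. The 8 B cell markers summed to 312.5 to 764 CPM in the glands and 9.29 to 12.1 CPM in the tumors. All 8 were downregulated, and Cd79a and Pax5 were not above the floor in any tumor. The 9 T cell markers summed to 197.7 to 509.7 CPM in the glands and 30.2 to 45.9 CPM in the tumors, with 9 of 9 downregulated. Among the glands, both lymphocyte sums had the order of the mitotic genes, M11035, M9232, M11640. Lymphocytes divide in lymphoid tissue, and their part in the gland levels of the mitotic genes was not tested. Epithelial markers went the other way, from 237 to 537 CPM in the glands to 2135 to 2747 CPM in the tumors, with 6 of 8 upregulated. The order of their sums among the tumors, T9232 highest and T11035 lowest, was the reverse of that of the mitotic genes. Cdh1, Krt5 and Krt8 had this order, whereas Epcam, Krt14 and Esrp1 were highest in T11640 and Krt18 and Cldn7 were lowest there. The order was not particular to epithelial markers. In T11035, T11640 and T9232, T cell sums were 30.2, 31.3 and 45.9 CPM, and endothelial sums 201, 248 and 279 CPM.

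Adipocyte markers summed to 3131 to 6315 CPM in the glands and 159 to 215 CPM in the tumors (8 of 8 downregulated, Lep not above the floor in any tumor). Fibroblast markers summed to 940 to 3625 and 8459 to 9085 CPM (3 of 7 upregulated), macrophage markers to 1053 to 3823 and 1111 to 2329 CPM (1 of 7 downregulated) and endothelial markers to 343 to 472 and 201 to 279 CPM (2 of 7 downregulated). The part of these shifts in the mitotic fold changes was not tested. Atf3 itself measured 4.47, 8.09 and 22.6 CPM in the glands and 13.4, 18.4 and 19.3 CPM in the tumors and was not called (log2 fold change 0.80, limma adjusted p = 0.223). These fragments were counted on the mouse RefSeq gene. Whether they include transcripts of the transgene was not tested, so the values are not a measure of its level.

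**Figure D4:**
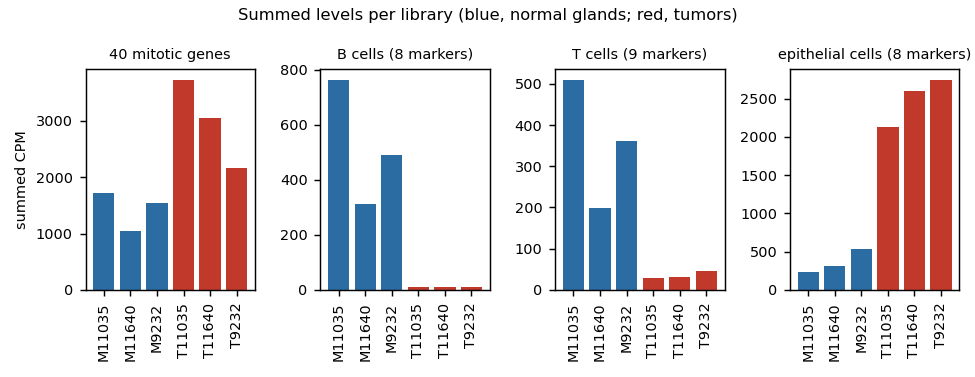
Summed CPM per library of the 40 mitotic genes and of the B cell, T cell and epithelial markers, with normal glands in blue and tumors in red and a separate axis per panel. The mitotic genes sum to 1043 to 1722 CPM in glands and 2159 to 3728 CPM in tumors, and B cell markers to at most 12.1 CPM in tumors. Condensin and mitotic chromosome genes give the largest part of the mitotic sums of any role group. Among them are Smc4, which was not called, at 329.5 to 551 CPM over the libraries, and Mki67 at 166.5 to 702 CPM. The sums thus weigh the most abundant genes most.

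Other genes of mitosis were counted beside the 40. Of 65 measured genes of the other mitotic machinery, 22 (33.8%) were upregulated DEGs and 0 were downregulated, against 14.5% and 13.7% of all genes. The list's median was 0.58 on the log2 scale. The 22 included 9 of 18 other kinetochore genes, 3 of 6 genes of the checkpoint and passenger complex, 2 of 4 other kinesins and 6 of 12 genes of spindle and centrosome. By contrast, 1 of 4 other condensin genes (Ncaph) and 1 of 8 cohesin genes (Cdca5, 12.5% of its group, near the 14.5% of all genes) were upregulated DEGs. Of 13 subunits and cofactors of the anaphase-promoting complex, 0 were upregulated DEGs, and 2 were higher by the adjusted p alone. By the adjusted p alone, 2 of the 8 cohesin genes were lower in the tumors, by less than 2-fold, against 2996 of all 15280 genes. Ncaph and Cdca5 were named after their values were seen. The highest log2 fold change of this list was that of Ckap2, a microtubule-stabilizing protein (2.66), and the lowest that of Haus4, an augmin subunit (-0.56, not called).

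Among 18 regulators of mitotic entry and mitotic transcription, 8 (44.4%) were upregulated, against 14.5% of all genes. Ccnb1 (cyclin B1), the partner of Cdk1, measured 6.71, 3.47 and 8.48 CPM in the glands and 49.5, 45.1 and 32.1 CPM in the tumors (log2 fold change 2.72). Its tumor levels followed the order of the 40 genes. E2f8, an atypical E2F that represses transcription, had the highest log2 fold change of the list, 3.09, but its tumor levels of 48.6, 59.5 and 68.8 CPM ran in the opposite order. Foxm1 was upregulated by 1.49 (limma adjusted p = 0.0033). Mybl2 (B-Myb) had a log2 fold change of 0.76 and was not called (limma adjusted p = 0.0826). Lin52, a MuvB subunit, had the lowest value, -0.80, and stayed under the 2-fold threshold.

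The genes of DNA replication licensing, which act in G1 and S phase, gave 3 upregulated DEGs of 23 (Mcm10, Gins1 and Dbf4, the last 2 named after their values were seen) and 0 downregulated. This share of 13.04% was near the 14.5% of all genes. In 10 of the 23 genes every tumor lay above every gland, against 27.6% of all genes. A positive log2 fold change was seen in 18 of the 23, against 7616 of all 15280 genes. The median log2 fold change of the 23 was 0.55, against -0.0028 for all genes. Values ran from -0.38 for Gins4, a subunit of the GINS complex, to 1.45 for Mcm10, a factor of replication initiation. TTTGAA was found in the windows of 5 of 18 of these genes (27.8%), 20 of 56 genes of the other mitotic machinery (35.7%) and 6 of 13 regulators (46.2%). E2F-type letters were found in 6 of the 18 (33.3%). CCAAT was found in 12 of the 18 (66.7%), 31 of the 56 (55.4%) and 11 of the 13 (84.6%). The CCAAT share of the spindle and segregation genes, 69.4%, was thus not particular to them. The difference between these lists was not tested, since the genes of a list are not independent samples.

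**Figure D5:**
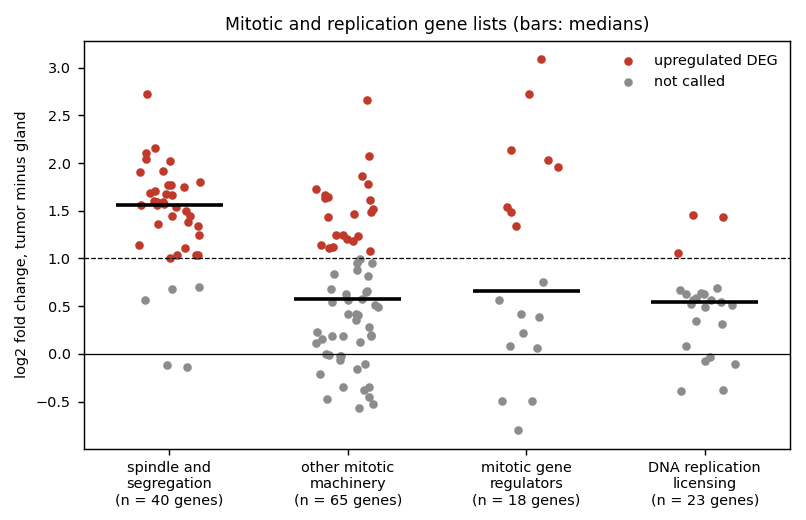
Log2 fold change, tumor minus gland, of each gene in the 40 spindle and segregation genes, 65 other mitotic genes, 18 regulators and 23 replication licensing genes, with medians as black bars. Red points are upregulated DEGs (35, 22, 8 and 3), and the dashed line marks a 2-fold change.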

How the data were processed

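RNA-Seq libraries of 3 tumors and 3 paired glands were used, and each was grouped by its label. According to the paper's methods and the submitters' processing notes, the authors called bases with CASAVA 1.8.2, mapped read pairs of Ovation libraries to mm9 with TopHat2 2.0.3, counted fragments per RefSeq gene with HTSeq 0.5.3p9 and removed genes with fewer than 10 fragments in total. The kit does not mark strand, so antisense and overlapping genes cannot be separated. The authors deposited a normalized signal per gene, CPM on edgeR's effective library size (edgeR 3.6.1 is named). In every library, 100% of values were whole multiples of the value of 1 fragment (tolerance 0.01 fragments), so fragments were recovered, and 0 columns were left out. Libraries of a group differed by a chi-square per degree of freedom of at least 13 and were not copies. Floors of fragments cover counting error only, whereas the 95% intervals of fold changes are limma's and cover the spread between libraries.

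The main test was limma 3.58.1 (R 4.3.3, lmFit and eBayes with trend) on log2(CPM + 0.5), without a block. edgeR 4.0.16 and DESeq2 1.42.0 on the recovered fragments were alternatives. Scripts were tested on simulated data. The authors' thresholds (FDR and fold change) were used, without their length filter. Positions are those of mm9, and exon lengths come from GENCODE M1. Transcripts were compared with BLAST 2.17.0 (at least 95% identity over 500 bp): 0 members matched a gene that does not overlap them. By exon coordinates, 6 members overlap a neighbor. Because tumor and gland came from the same animal, the mouse numbers pair the samples (correlation of deviations from the group means over 14712 genes: 0.107, 0.151 and 0.0168).

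The 40 genes, the other lists and the motifs were chosen with earlier results of these data known. The text names all 40 genes, gives per-library values for the highest and lowest fold change in each role group and for every gene not called, and in each other list names the highest and lowest gene and Foxm1, Mybl2 and Ccnb1. Cenpm, Kifc1 and Pkmyt1 had no row and were not analysed here.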

Additional observations from a re-analysis of the deposited data

How the results depend on the processing

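Under the 14 alternatives, between 27 (without T11035) and 35 of the 40 genes were upregulated DEGs, and none of the 5 uncalled genes was gained. Of the 35, 27 kept their call in every alternative. With the replicate block, which pairs the tissues of a mouse, the same 35 genes were called and 4298 DEGs were found among all genes, against 4309 without it, and the counts of the other lists were 22, 8 and 3 in both fits. Racgap1 passed the adjusted p alone with the block (limma adjusted p = 0.0397), below the 2-fold threshold. It also passed in another alternative, and Kif20a passed in at least 1, again below this threshold. Ncapd2, Smc4 and Pttg1 passed the adjusted p in no alternative. edgeR and DESeq2 each called the same 35 genes, a pseudocount of 2 CPM lost Cenpa, Mad2l1 and Ncapg, and scaling each library to an equal total lost Ncapg. Leaving out 1 library at a time gave 27 to 35 upregulated genes and a median log2 fold change of 1.28 (without M11640) to 1.75 (without T9232). With 1 library left out, the log2 fold change changed sign for Smc4 (-0.32 without M11640 to 0.036 without T9232) and for Pttg1 (-0.34 without T11035, 0.0018 without M9232 and 0.12 without T9232), neither of which was called in any setting, and the cause was not tested. Regulators gave 8 upregulated genes in every setting, the other mitotic machinery 16 to 23 and replication licensing 2 to 3. Gland counts of 4 to 30 fragments per library in Aurka, Cdc20, Espl1, Kif18b, Kif2c, Melk, Plk1 and Spag5 limit the precision of their fold changes.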
